A study of Homo sapiens with 12 samples.

Results

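The E2F transcription factor genes E2F1, E2F2, E2F3, E2F4, E2F7 and E2F8, the pocket protein genes RB1, RBL1 and RBL2, and the B-MYB gene MYBL2 were followed through knockdown of the transcription factor subunit NFYA in HCT116 cells, an epithelial line from a human colon carcinoma. They were chosen by symbol through their Ensembl identifiers, and make up 10 of the 63677 genes listed and 10 of the 17730 with enough reads to be tested. The 12 libraries of polyadenylated RNA form 6 groups of 2: siTotal1 and siTotal2 (an siRNA each against every NFYA transcript), siLong1 and siLong2 (an siRNA each against only those NFYA transcripts whose 3′ untranslated region is longest), siControl (a non-targeting siRNA) and mock (transfection reagent without siRNA). Each siRNA was at 62.5 nM, and all cells were seeded at 25000 per well and collected 72 h after transfection. The libraries of a group are described as biological duplicates of 1 cell line. A p-value therefore measures the spread between duplicates, estimated over all 6 groups together, and not that between siRNA sequences.

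E2F proteins bind DNA as partners of DP proteins and switch on the genes that a cell needs to enter S phase. E2F1, E2F2 and E2F3 are known as activators, E2F4 as a repressor that works with pocket proteins, and E2F7 and E2F8 as repressors that work without DP or pocket proteins. The pocket proteins RB1 (pRB), RBL1 (p107) and RBL2 (p130) hold E2Fs in check until cyclin-dependent kinases phosphorylate them. RBL1 or RBL2 with E2F4 and the MuvB core form the DREAM complex, which silences cell cycle genes in resting cells, and in dividing cells MuvB joins MYBL2, and later FOXM1, to switch on G2/M genes. NFYA is the DNA-contacting subunit of NF-Y, which binds CCAAT boxes, and many cell cycle promoters carry them.

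The siRNA sense strands given in the labels define the groups, and are shown with capitals on the bases that pair with positions 2 to 8 of the guide strand, the seed. The labels number the siRNAs of each target but do not tie a number to a sequence, so the strands are named here by their place in the labels.
siTotal, listed first: acuagaggcagAAGGGAAa
siTotal, listed second: uggugaaggugGACGAUUu
siLong, listed first: agugaucauugUAGGGUAa
siLong, listed second: ggucauuccuuUAGCAUCa
In the longest annotated 3′ untranslated region of each of the 10 genes, the seed match of the first siLong strand occurred once, in E2F7, and that of the second in none. The match of the first siTotal strand occurred once in E2F1 and once in E2F3, and that of the second in none. Among 18816 genes with such a region of GENCODE 29, these matches were present in 5.27% and 6.66% for the siLong strands and in 18.7% and 1.26% for the siTotal strands. All 3 matches are shown, in capitals; since the labels do not tie a strand to a numbered group, none can be set beside the levels of a single siRNA, and their part in any level was not tested.
E2F1 3′ untranslated region, chr20:33676543-33676561, GRCh38, minus strand: agcaagccaggAAGGGAAg
E2F3 3′ untranslated region, chr6:20491785-20491803, GRCh38, plus strand: taagttggaccAAGGGAAg
E2F7 3′ untranslated region, chr12:77023674-77023692, GRCh38, minus strand: tagcacttaacTAGGGTAa

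Promoters were read from RefSeq (GRCh38.p14), from 250 bases before to 50 after the annotated start. Entries at or near the gene's 5′ end were found for E2F1, E2F2, E2F3, E2F4, E2F7, RBL1, RBL2 and MYBL2. The RB1 entry lies 172724 bases inside the gene and was not used, and E2F8 was not matched. Searched on both strands, the E2F word TTTGGCG and its variants with CG (TTTCGCG), with CC (TTTCCCG) and with GC (TTTGCCG) in the middle were found 3 times in E2F1 (2 of them overlapping on opposite strands) and 2 times each in E2F2, E2F3 and RBL1. Among 35116 promoters 8.67% hold at least 1 such word and 0.681% hold at least 2. These windows are shown, in the direction of the gene, with the words in capitals, because they show which family members carry E2F words in their own promoters. E2F4, E2F7, RBL2 and MYBL2 held none of the 7-letter words. Of the 4 words without their first letter, E2F7 held 2 and MYBL2 held 1, printed with the word or its reverse complement in capitals, and E2F4 and RBL2 held none; at least 1 is present in 31.1% of promoters and at least 2 in 8.66%.
E2F1, chr20:33686396-33686425, minus strand: ctcTTTCGCGGCAAAaaggaTTTGGCGcgt
E2F2, chr1:23531265-23531294, minus strand: cgaaTTTCGCGgcacgacgTTTGGCGctaa
E2F3, chr6:20401822-20401851, plus strand: gccggCGGGAAAtccgagTTTCGCGggagg
RBL1, chr20:37096000-37096029, minus strand: gcagatTTTCGCGcgcTTTGGCGcaggtgg
E2F7, chr12:77065727-77065756, minus strand: agggggccgaggCGGCAAcaattgggcggg
E2F7, chr12:77065684-77065713, minus strand: cgcggctcggagCGCCAAgactccgagggg
MYBL2, chr20:43667061-43667090, plus strand: gcgccgacgcgcTTGGCGggagatagaaaa

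The NF-Y word CCAAT, on either strand, was found 3 times in the E2F1 window, 4 times in that of E2F7 and 4 times in that of E2F3, at the upstream of its 2 annotated starts, which also holds its E2F words. At least 3 are present in 3.26% of all promoters and at least 1 in 34.6%. It was not found in the 300-base windows of E2F2, E2F4, RBL1 and MYBL2, and was found once in RBL2, at the more downstream of its 2 annotated starts. The 2 boxes nearest the start are shown for each of the 3 genes, with CCAAT or its reverse complement ATTGG in capitals. A word in these windows describes the sequence only, and binding was not measured.
E2F1, chr20:33686481-33686510, minus strand: ggcgcgttaaagCCAATaggaaccgccgcc
E2F1, chr20:33686438-33686467, minus strand: cggccggggcagCCAATtgtggcggcgctc
E2F3, chr6:20401716-20401745, plus strand: ccctgctccatgATTGGgactgaagtaagg
E2F3, chr6:20401744-20401773, plus strand: ggaggtagcggcCCAATgggctgtgggaac
E2F7, chr12:77065638-77065667, minus strand: tgccgccgcacgATTGGccggggccgcccc
E2F7, chr12:77065606-77065635, minus strand: cggccgccgctgATTGGtggattctcaaat

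Libraries held 35604197 to 49746637 gene reads, and the 10 genes had 653 to 9992 reads in any library. NFYA, counted over all its transcripts, fell against siControl by 0.28 (log2) in siTotal1, 0.32 in siTotal2 and 0.29 in siLong1, whereas the libraries labelled siLong2 were higher by 0.28 (edgeR quasi-likelihood F-test, Benjamini-Hochberg, adjusted p = 1.7e-05, 1.8e-06, 7.0e-06 and 5.9e-06). The siLong directions given here therefore rest partly on libraries in which total NFYA was higher and not lower, and a gene-level count does not measure the long form by itself. All 7 epithelial markers were expressed, with a summed level of 5209 to 5688 CPM (reads scaled to library size) in the siLong libraries, 3449 to 3953 CPM in the siTotal libraries, 3642 to 3702 CPM in siControl and 3619 to 3824 CPM in mock. The sum is mostly that of the keratin genes KRT8, KRT18 and KRT19, which were higher in siLong than in siControl by 0.81, 0.59 and 0.67 (log2), whereas CLDN7 (-0.55), CLDN4 (-0.37) and CDH1 (-0.12) were lower and EPCAM was not called (0.01). Against mock 6 of the 7 were higher in siLong and 0 lower, where 50.8% of all genes were called. In siTotal 2 were higher and 4 lower against siControl (44.2% of all genes called) and 0 higher and 3 lower against mock (30.8%). Fibroblast markers (6 genes) summed to 26.3 to 45.1 CPM over all libraries, nearly all of it COL1A1, blood markers (5 genes) to 0.120 to 0.668 CPM and endothelial markers (3 genes, PECAM1 at 0) to 0.420 to 1.22 CPM. Mitochondrial transcripts took 5.45% to 6.60% of reads in the siLong libraries, 3.93% to 5.75% in the siTotal libraries, 3.90% to 4.98% in siControl and 3.83% to 4.58% in mock. The part of the epithelial and mitochondrial differences in the results below was not tested, and in a culture fewer cells in a cycle phase and less RNA per cell cannot be told apart.

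Per length, MYBL2 and E2F4 were the most abundant of the 10 and RBL1 and RBL2 the least. Over the 12 libraries MYBL2 averaged 64.3 CPM per kilobase of exon (35.8 to 83.9) and E2F4 39.2 (29.6 to 47.5). E2F3, E2F1, RB1 and E2F8 followed at 15.2, 14.5, 13.4 and 10.4, and their ranges overlapped. E2F7 averaged 7.98, E2F2 7.75, RBL1 5.63 (4.24 to 6.70) and RBL2 4.25 (2.52 to 5.55) CPM per kilobase. The highest library exceeded the lowest by 1.52 times for E2F3, the steadiest of the 10, and by 2.34 times for MYBL2 and 2.30 times for E2F7.

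**Figure D1:**
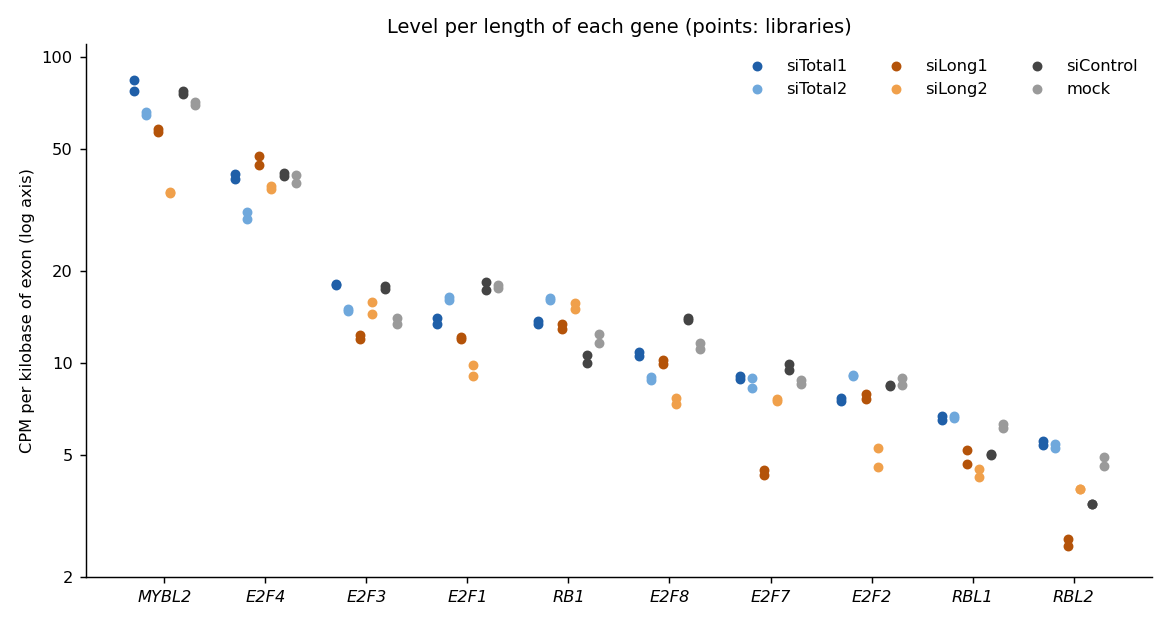
Level per length of the 10 genes in CPM per kilobase of exon, on a log axis; each point is a library, coloured by group, and genes are ordered by mean level. MYBL2 lies above the other genes except in the libraries labelled siLong2, where it lies just below E2F4.

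The activators E2F1 and E2F2 were lowest in the libraries labelled siLong2, and E2F1 was below both controls with each siRNA in every library. E2F1 (ENSG00000101412, chromosome 20, 33675683 to 33686404, minus strand on GRCh38), the activator best known for driving S phase entry, stood at 33.7 and 35.1 CPM in siTotal1, 41.1 and 40.1 in siTotal2, 30.5 and 29.8 in siLong1, and 22.7 and 24.6 in the libraries labelled siLong2, against 45.9 and 43.1 CPM in siControl and 43.8 and 45.0 in mock. The 2 controls overlapped, and the other 4 groups formed steps below them that did not overlap. Against siControl, E2F1 fell by 0.56 (log2; SE 0.06, adjusted p = 1.5e-10) in siLong1, by 0.91 in the libraries labelled siLong2 (SE 0.06, adjusted p = 1.2e-15) and by 0.37 in siTotal1 (adjusted p = 1.1e-06). In siTotal2 it was at -0.13 with an adjusted p at the threshold of 0.05, and that call ended when either siTotal2 library was left out (adjusted p = 0.066 and 0.16) or siControl replicate 1 was (adjusted p = 0.29). Against mock the values were -0.56 in siLong1, -0.91 in the libraries labelled siLong2 and -0.37 in siTotal1, all called, and -0.13 in siTotal2 (adjusted p = 0.081).

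**Figure D2:**
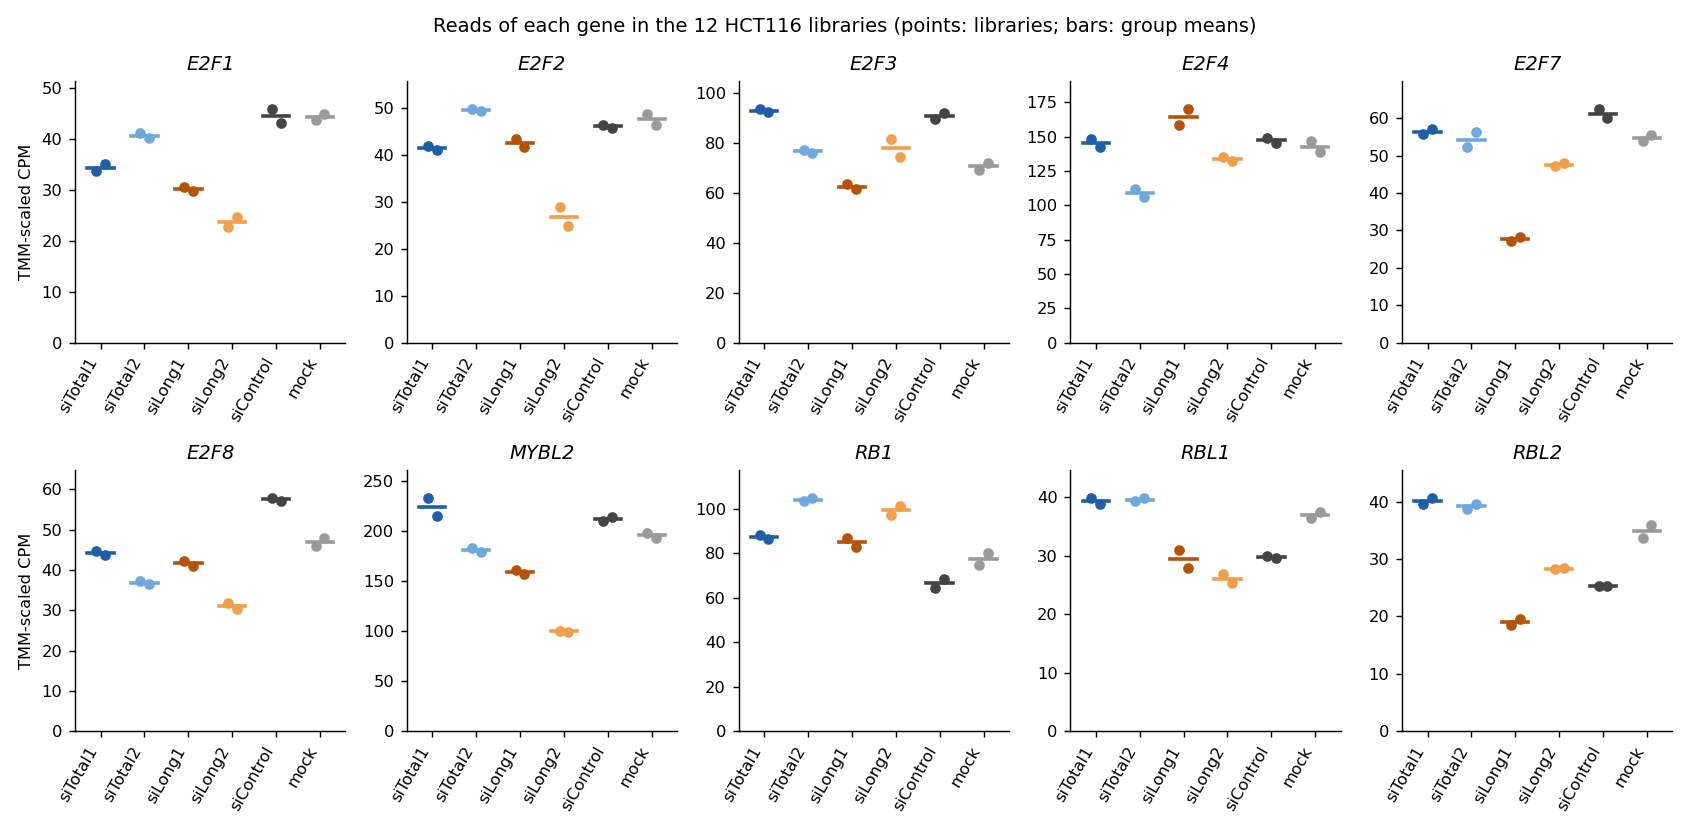
TMM-scaled CPM of each of the 10 genes in the 12 libraries, with points for libraries and bars for group means, from siTotal1 at the left to mock at the right. E2F1, E2F2 and MYBL2 are lowest in the libraries labelled siLong2, E2F7 and RBL2 are lowest in siLong1, and RB1 is lowest in siControl.

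E2F2 (ENSG00000007968, chromosome 1, 23506430 to 23531220), a close relative of E2F1, separated the siLong siRNAs. It stood at 41.9 and 41.0 CPM in siTotal1, 49.7 and 49.3 in siTotal2, 43.3 and 41.7 in siLong1, and 28.8 and 24.9 in the libraries labelled siLong2, against 46.3 and 45.8 CPM in siControl and 48.7 and 46.3 in mock. The libraries labelled siLong2 lay far below all others. There E2F2 fell by 0.78 (log2; SE 0.06, adjusted p = 1.2e-13) against siControl and by 0.83 against mock, while in siLong1 it was at -0.12 against siControl (adjusted p = 0.087) and at -0.16 against mock (adjusted p = 0.015; 0.096 without siLong1 replicate 2 and 0.13 without mock replicate 1). siTotal1 was lower against both controls, at -0.15 against siControl (adjusted p = 0.030) and -0.20 against mock (adjusted p = 0.0044). The first of these calls ended without siTotal1 replicate 2, siControl replicate 1 or siControl replicate 2 (adjusted p = 0.10, 0.075 and 0.052), and the second without mock replicate 1 (adjusted p = 0.058). siTotal2 was not called, at 0.11 and 0.06. The siLong mean, at -0.45 against siControl (adjusted p = 1.1e-09), averages these unequal values.

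E2F3 (ENSG00000112242, chromosome 6, 20401906 to 20493715), the third activator, differed between the controls. It stood at 93.7 and 92.4 CPM in siTotal1, 77.2 and 76.2 in siTotal2, 63.5 and 61.8 in siLong1 and 81.6 and 74.4 in the libraries labelled siLong2, against 89.7 and 92.2 CPM in siControl and 69.2 and 72.2 in mock. Because siControl exceeded mock by 0.36 (SE 0.05, adjusted p = 5.6e-08), the direction in siTotal depended on the control. E2F3 in siTotal was at -0.11 against siControl (adjusted p = 0.031; 0.17 without siControl replicate 2) and at 0.26 against mock (adjusted p = 5.8e-06). These siTotal means join unequal values. Against siControl siTotal1 was at 0.03 (not called) and siTotal2 at -0.25, and against mock siTotal1 was at 0.40 and siTotal2 at 0.12 (not called). Only siLong1 lay below both controls, at -0.54 against siControl and -0.18 against mock (adjusted p = 4.7e-12 and 0.0023). In libraries labelled siLong2 it was at -0.22 against siControl and 0.14 against mock, and the value against mock lost its call without siLong2 replicate 1 (adjusted p = 0.39) or mock replicate 1 (adjusted p = 0.13).

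MYBL2 (ENSG00000101057, chromosome 20, 43667019 to 43716496, plus strand), the MuvB partner that activates G2/M genes, was lower with both siLong siRNAs. It stood at 233 and 215 CPM in siTotal1, 183 and 179 in siTotal2, 161 and 157 in siLong1, and 99.998 and 99.5 in the libraries labelled siLong2, against 210 and 214 CPM in siControl and 198 and 193 in mock. No siLong library reached the level of a control, and siTotal1 and siTotal2 lay on either side of the controls. Against mock siTotal1 was at 0.20 and siTotal2 at -0.11, both called, so their mean joins opposite calls. Against siControl MYBL2 fell by 0.41 in siLong1 (log2; SE 0.04, adjusted p = 9.4e-11) and in the libraries labelled siLong2 by 1.09 (SE 0.04, adjusted p = 7.3e-22), and against mock by 0.30 and 0.97. It was at 0.08 in siTotal1 (adjusted p = 0.12; called at 0.13 without siTotal1 replicate 2, adjusted p = 0.015) and at -0.23 in siTotal2 against siControl (adjusted p = 1.7e-05). The mean of both siTotal siRNAs was at -0.08 against siControl (adjusted p = 0.084; -0.12 and 0.0026 without siTotal1 replicate 1) and at 0.04 against mock (adjusted p = 0.40).

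**Figure D3:**
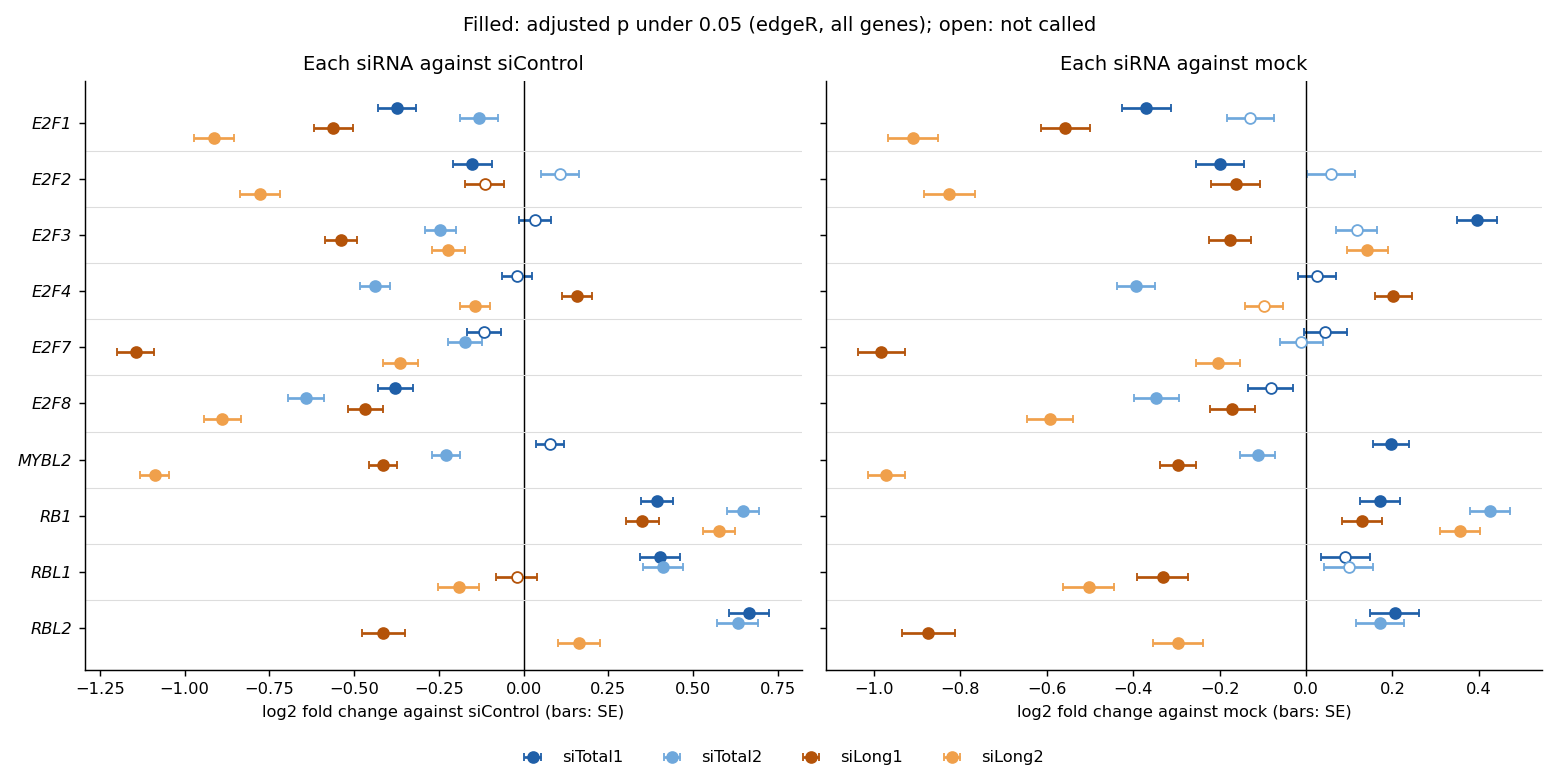
Log2 fold change of each of the 10 genes with each siRNA, against siControl on the left and against mock on the right, with SE bars; filled points passed an adjusted p of 0.05 in edgeR. E2F1 lies left of 0 with every siRNA against both controls, RB1 lies right of 0 with every siRNA against both controls, and E2F7 reaches -1.14 in siLong1 against siControl.

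Among the repressor E2Fs, E2F7 was lowest in siLong1, E2F8 in the libraries labelled siLong2 and E2F4 in siTotal2. E2F7 (ENSG00000165891, chromosome 12, 77021247 to 77065580, minus strand), known for damping E2F target genes late in S phase, stood at 55.8 and 57.0 CPM in siTotal1, 52.3 and 56.2 in siTotal2, 27.1 and 28.2 in siLong1, and 47.2 and 47.9 in the libraries labelled siLong2, against 62.4 and 59.9 CPM in siControl and 54.0 and 55.4 in mock. The 2 siLong1 libraries lay apart from the other 10. E2F7 fell by 1.14 in siLong1 (log2; SE 0.05, adjusted p = 1.4e-19), to 0.45 of the siControl level, while the libraries labelled siLong2 were lower by 0.36 (SE 0.05, adjusted p = 1.6e-07). Against mock the values were -0.98 and -0.20, both called. In siTotal it was at -0.14 against siControl (adjusted p = 0.0063; 0.082 without siControl replicate 1) and at 0.02 against mock (adjusted p = 0.81).

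E2F8 (ENSG00000129173, chromosome 11, 19224063 to 19241620, minus strand), the partner of E2F7, was highest in siControl. It stood at 44.8 and 43.7 CPM in siTotal1, 37.2 and 36.5 in siTotal2, 42.2 and 41.1 in siLong1, and 31.9 and 30.3 in the libraries labelled siLong2, against 57.9 and 57.2 CPM in siControl and 45.9 and 47.9 in mock. None of the 6 groups overlapped. Against siControl it fell by 0.38 in siTotal1 (adjusted p = 1.5e-07), by 0.64 in siTotal2 (adjusted p = 9.6e-13), by 0.47 in siLong1 (adjusted p = 1.1e-09) and by 0.89 (adjusted p = 1.6e-16) in the libraries labelled siLong2. Against mock the values were nearer 0, at -0.08 in siTotal1 (adjusted p = 0.22), -0.35 in siTotal2 and -0.17 in siLong1, and the libraries labelled siLong2 were at -0.59; the siLong1 call ended without mock replicate 2 (adjusted p = 0.065). The ratio of E2F7 to E2F8 per length was 0.817 and 0.857 in siTotal1, 0.923 and 1.01 in siTotal2, 0.422 and 0.451 in siLong1, and 0.972 and 1.04 in the libraries labelled siLong2, against 0.707 and 0.689 in siControl and 0.773 and 0.760 in mock. It was lowest in siLong1, and siTotal2 and the libraries labelled siLong2 overlapped.

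E2F4 (ENSG00000205250, chromosome 16, 67192169 to 67198918, plus strand), the E2F of the DREAM complex, stood at 148 and 142 CPM in siTotal1, 112 and 106 in siTotal2, 158 and 170.1 in siLong1 and 135 and 132 in the libraries labelled siLong2, against 149 and 146 CPM in siControl and 147 and 139 in mock. siTotal2 lay below all other groups and siLong1 above them, while siTotal1 overlapped both controls. E2F4 fell by 0.44 in siTotal2 against siControl (log2; SE 0.04, adjusted p = 1.9e-10) and by 0.39 against mock. In siLong1 it rose by 0.16 against siControl (adjusted p = 0.0024) and by 0.20 against mock, and the call against siControl ended without siLong1 replicate 2 (adjusted p = 0.18) or siControl replicate 2 (adjusted p = 0.055). In the libraries labelled siLong2 it was at -0.14 against siControl (adjusted p = 0.0062) and at -0.10 against mock (adjusted p = 0.0615, not called). The siLong mean, at 0.01 against siControl (adjusted p = 0.89), averages these opposite calls of the siLong siRNAs. The siTotal mean, called at -0.23 against siControl and -0.18 against mock, rests on siTotal2. In siTotal1 E2F4 was not called, at -0.02 and 0.03.

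The pocket proteins did not move as 1 group. RB1 was higher with all 4 siRNAs, RBL1 and RBL2 were highest with the siTotal siRNAs, and RBL2 was lowest in siLong1. RB1 (ENSG00000139687, chromosome 13, 48303726 to 48599436, plus strand), the retinoblastoma gene, stood at 88.2 and 86.4 CPM in siTotal1, 103 and 105 in siTotal2, 86.7 and 83.0 in siLong1, and 97.1 and 101 in the libraries labelled siLong2, against 64.6 and 68.5 CPM in siControl and 74.9 and 80.2 in mock. Every library with an NFYA siRNA lay above every control library. RB1 rose by 0.52 (log2; SE 0.04, adjusted p = 6.8e-13) in siTotal and by 0.46 (SE 0.04, adjusted p = 6.4e-12) in siLong against siControl, and by 0.30 and 0.24 against mock (adjusted p = 3.3e-07 and 3.8e-06). Single siRNAs gave 0.13 to 0.43 against mock, the lowest in siLong1, where the call ended without siLong1 replicate 1 (adjusted p = 0.28) or mock replicate 1 (adjusted p = 0.32); that of siTotal1 (0.17) ended without siTotal1 replicate 1 (adjusted p = 0.057) or mock replicate 1 (adjusted p = 0.14). The annotated span of RB1 holds other genes on the opposite strand, among them LPAR6, and that of RBL2 meets AKTIP; no source used here says whether counting used strand, so reads in shared exons may not be told apart.

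RBL1 (ENSG00000080839, chromosome 20, 36996349 to 37095995, minus strand), itself a known E2F target, stood at 39.9 and 38.9 CPM in siTotal1, 39.3 and 39.8 in siTotal2, 30.9 and 27.9 in siLong1, and 26.9 and 25.3 in the libraries labelled siLong2, against 29.9 and 29.7 CPM in siControl and 36.5 and 37.5 in mock. The siTotal libraries were above both controls, siLong1 overlapped siControl, and siControl was below mock by 0.31 (adjusted p = 4.2e-05). RBL1 rose by 0.41 in siTotal against siControl (log2; SE 0.05, adjusted p = 3.6e-08) but was at 0.10 against mock (adjusted p = 0.15). In siLong it was at -0.11 against siControl (adjusted p = 0.090; -0.15 and 0.025 without siLong1 replicate 1) and fell by 0.42 against mock (adjusted p = 8.0e-09).

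RBL2 (ENSG00000103479, chromosome 16, 53433977 to 53491649, plus strand), the pocket protein most abundant in resting cells, stood at 39.6 and 40.7 CPM in siTotal1, 38.7 and 39.6 in siTotal2, 18.4 and 19.5 in siLong1, and 28.3 and 28.4 in the libraries labelled siLong2, against 25.4 and 25.2 CPM in siControl and 33.7 and 36.0 in mock. The siTotal libraries held about the same level with either siRNA and were the highest, and siLong1 was below every other library. RBL2 rose by 0.65 in siTotal against siControl (log2; SE 0.05, adjusted p = 7.0e-13) and by 0.19 against mock (SE 0.05, adjusted p = 0.0028; without mock replicate 1, adjusted p = 0.15). In siLong1 it fell by 0.41 against siControl (SE 0.06, adjusted p = 8.3e-07) and by 0.87 against mock (adjusted p = 1.1e-14). In libraries labelled siLong2 it was at 0.16 against siControl (adjusted p = 0.024) and fell by 0.30 against mock (adjusted p = 5.0e-05); the first of these calls ended when any of the libraries labelled siLong2 or of the siControl libraries was left out (adjusted p = 0.085 to 0.093). The siLong mean against siControl, at -0.13 (adjusted p = 0.047), averages these opposite values, and its call ended when any siLong or siControl library except siLong1 replicate 2 was left out (adjusted p = 0.062 to 0.14). The ratio of E2F1 to RBL2 per length was 2.49 and 2.52 in siTotal1, 3.10 and 2.96 in siTotal2, 4.83 and 4.47 in siLong1 and 2.34 and 2.54 in the libraries labelled siLong2, against 5.29 and 5.00 in siControl and 3.80 and 3.66 in mock.

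Counted over all 10 genes against siControl, 3 were called higher and 5 lower in siTotal, where 44.2% of all genes tested were called, and 1 higher and 7 lower in siLong, where 53.5% were. Against mock, 3 were higher and 3 lower in siTotal (30.8% of all genes called) and 1 higher and 7 lower in siLong (50.8%). Of all genes, 22.0% were called higher and 22.2% lower in siTotal against siControl, 25.1% and 28.4% in siLong against siControl, 16.6% and 14.2% in siTotal against mock, and 24.4% and 26.4% in siLong against mock. In siLong the median of the 10 genes was -0.41 and -0.46 (log2) beside medians of -0.01 and -0.01 over all genes. In siTotal the medians of the 10 genes were -0.09 and 0.03. The comparisons with siControl share its 2 libraries and those with mock share 2 others, so their counts are not independent. With each siRNA sequence as 1 replicate against the 2 controls, edgeR called none of the 10 genes in siTotal or siLong: 1 (RB1) and 3 (E2F1, E2F8 and MYBL2) had an unadjusted p under 0.05, and DESeq2 called 0 in both.

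The controls differed from each other in 7 of the 10 genes. In siControl against mock 4 were higher and 3 lower, where 39.8% of all genes were called (20.3% higher and 19.5% lower). E2F3 (0.36), E2F8 (0.30), E2F7 (0.16) and MYBL2 (0.12) were higher in siControl, and RBL2 (-0.46), RBL1 (-0.31) and RB1 (-0.22) were lower. E2F1 (0.004), E2F4 (0.05) and E2F2 (-0.05) were not called. The calls of E2F7 and MYBL2 ended without siControl replicate 1 (adjusted p = 0.12 and 0.060), that of E2F7 also without mock replicate 1 (adjusted p = 0.070) and that of MYBL2 also without siControl replicate 2 or mock replicate 2 (adjusted p = 0.17 and 0.13). All 3 pocket protein genes were lower in siControl than in mock, so their values against siControl lie above those against mock.

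Compared directly, siTotal exceeded siLong in 8 of the 10 genes and was lower in 1, where 53.4% of all genes were called (28.1% higher and 25.3% lower). RBL2 was higher in siTotal by 0.77 (log2; SE 0.04, adjusted p = 1.1e-17), MYBL2 by 0.68 (SE 0.03, adjusted p = 2.9e-20), E2F7 by 0.61 (SE 0.04), RBL1 by 0.51, E2F1 by 0.48, E2F2 by 0.42, E2F3 by 0.27 and E2F8 by 0.17. E2F4 was lower by 0.24 (adjusted p = 4.3e-08), and RB1 was at 0.06 (adjusted p = 0.16). The 4 siTotal libraries lay wholly above the 4 siLong libraries for RBL2, MYBL2, E2F7, RBL1 and E2F1. The share of all genes whose libraries separate in this way was not counted. For E2F2, E2F3, E2F4, E2F8 and RB1 the libraries overlapped, and the siRNAs within a target differed.

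**Figure D4:**
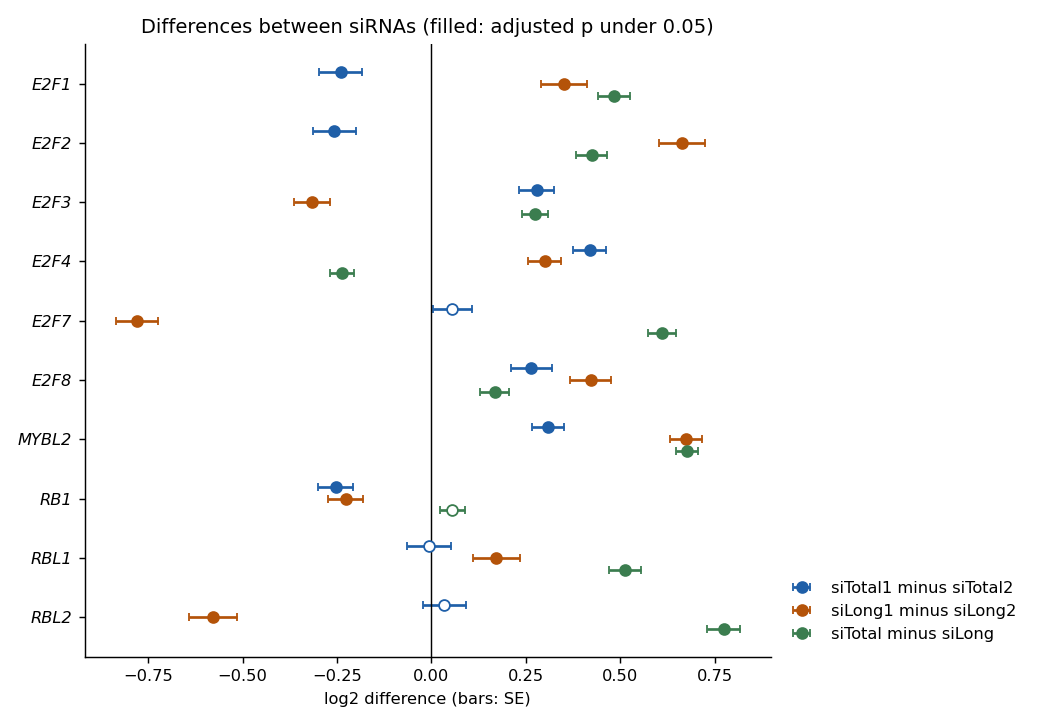
Log2 differences with SE bars between the siRNAs of a target (siTotal1 minus siTotal2, siLong1 minus siLong2) and between targets (siTotal minus siLong) for the 10 genes; filled points passed an adjusted p of 0.05. E2F7 and RBL2 lie left of 0 for siLong1 minus siLong2, MYBL2 and E2F2 lie right of 0, and RBL1, RBL2 and E2F7 lie near 0 for siTotal1 minus siTotal2.

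The siRNAs of 1 target did not give the same pattern. Between siLong1 and the libraries labelled siLong2, 6 of the 10 genes were higher in siLong1 and 4 lower, where 53.7% of all genes were called (26.7% higher and 27.0% lower). E2F7 was lower by 0.78 and RBL2 by 0.58 in siLong1, and MYBL2 was higher by 0.67 and E2F2 by 0.66. The smallest difference was RBL1 at 0.17 (adjusted p = 0.019; 0.38 without siLong1 replicate 1 and 0.24 without siLong2 replicate 2). Between siTotal1 and siTotal2, 4 were higher and 3 lower, where 43.9% of all genes were called (23.3% higher and 20.6% lower). E2F4 (0.42), MYBL2 (0.31), E2F3 (0.28) and E2F8 (0.26) were higher in siTotal1, E2F2 (-0.26), RB1 (-0.25) and E2F1 (-0.24) were lower, and E2F7, RBL1 and RBL2 were not called (0.06, -0.01 and 0.03). Against siControl, siTotal1 had 3 genes higher and 3 lower where 22.9% of all genes were higher and 20.5% lower (43.4% in all). siTotal2 had 3 and 6, where the shares were 22.6% and 22.6% (45.1%). siLong1 had 2 and 6, beside 26.4% and 28.1% (54.5%), and the libraries labelled siLong2 had 2 and 8, beside 25.9% and 26.9% (52.7%). Against mock, siTotal1 had 4 and 2, or 2 and 1 without mock replicate 1, beside 22.1% and 18.7% of all genes (40.9%). siTotal2 had 2 and 3, or 1 and 2 without either siTotal2 library or mock replicate 1, beside 14.1% and 12.6% (26.7%). siLong1 had 2 and 8, beside 26.0% and 26.1% (52.0%), and the libraries labelled siLong2 had 2 and 7, beside 25.2% and 25.0% (50.3%).

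Genes known as E2F targets at G1/S were mostly lower in siLong against both controls, though less evenly in siLong1 against siControl. Their direction in siTotal turned with the control. Of 24 tested G1/S genes, 3 were higher and 17 lower in siLong against siControl (median -0.24, log2) and all 24 were lower against mock (median -0.47), where 53.5% and 50.8% of all genes were called. Against siControl 7 were higher and 12 lower in siLong1 (median -0.14; 54.5% of all genes called). In the libraries labelled siLong2, 2 were higher and 20 lower (median -0.29; 52.7% of all genes called). RRM2, which encodes part of the enzyme that makes deoxynucleotides, fell by 0.96 (SE 0.04) and CDC6, which loads the replicative helicase, by 0.85 (SE 0.04) in siLong against siControl, while the replication helicase gene GINS1 rose by 0.32 and the sliding clamp gene PCNA by 0.31; against mock both fell, by 0.54 and 0.23. In siTotal, 16 were higher and 5 lower against siControl (median 0.13; 44.2% of all genes called), led by GINS1 (0.67) and the thymidine kinase gene TK1 (0.39), with RRM2 (-0.38) and the cyclin E gene CCNE1 (-0.27) lowest. Against mock 2 were higher and 13 lower in siTotal (median -0.11; 30.8% of all genes called), with GINS1 at -0.19, TK1 at 0.06 (not called), RRM2 at -0.21 and CCNE1 at -0.10 (not called). In siControl against mock 4 were higher and 16 lower (median -0.23), where 39.8% of all genes were called. Over all genes the medians of these comparisons lay between -0.01 and 0.00. The list was drawn up with results of these libraries known and is no independent evidence of its direction.

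G2/M genes known as targets of MYBL2, FOXM1 or DREAM were lower in siLong whichever control was used. All 22 fell against siControl (median -0.40), where 53.5% of all genes were called and 28.4% were called lower. All 22 also fell against mock (median -0.56), where 50.8% of all genes were called and 26.4% were called lower. The mitotic kinase gene AURKB fell by 0.62 (SE 0.04) and the phosphatase gene CDC25C by 0.62 (SE 0.06) against siControl. In siLong1 20 of 22 were lower against siControl (median -0.32) and in the libraries labelled siLong2 all 22 (median -0.51), beside 54.5% and 52.7% of all genes called. In siTotal 6 were higher and 2 lower against siControl (median 0.05), among them CENPF (0.27), BIRC5 (0.19), CCNF (-0.21) and BUB1B (-0.09), and 7 were lower and 0 higher against mock (median -0.07). The 8 of 22 called against siControl lie below the 44.2% called over all genes, and the 7 of 22 against mock are near the 30.8% there. Against mock CENPF was lower, at -0.10, BIRC5 was at 0.06 (not called), CCNF at -0.14 and BUB1B at -0.16. CCNF fell in siTotal1, by 0.38 against siControl and 0.30 against mock, and was not called in siTotal2 (-0.05 and 0.03). Genes of both target lists are known to rise in S phase or mitosis, and the share of cells in those phases was not measured. The G2/M list, too, was drawn up with results of these libraries known and is no independent evidence of its direction.

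**Figure D5:**
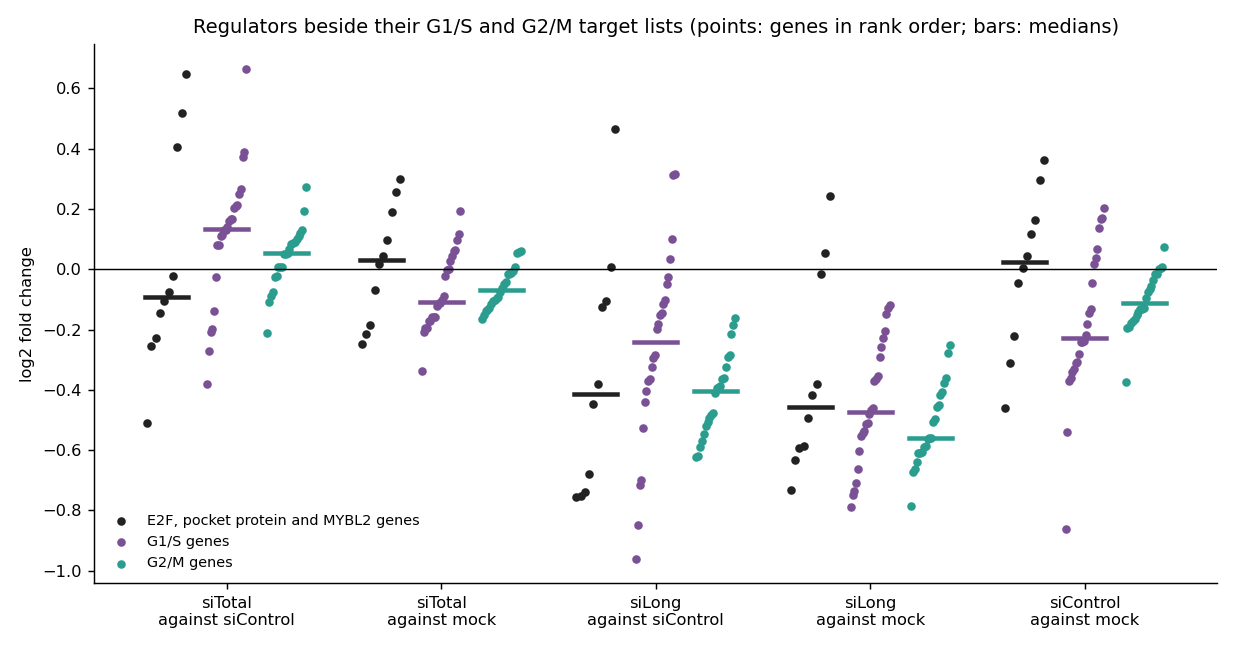
Log2 fold changes of the 10 regulators, 24 G1/S genes and 22 G2/M genes in 5 comparisons, with a point for each gene in rank order and bars at medians. The G2/M points lie below 0 throughout in both siLong comparisons, whereas the G1/S median in siTotal changes side with the control.

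Among partners of the 10 genes, 2 of 9 E2F partner and MuvB genes were higher and 6 lower in siLong against siControl, and 2 were higher and 5 lower in siTotal, beside 53.5% and 44.2% of all genes called. Against mock 2 were higher and 5 lower in siLong (50.8% of all genes called) and 2 higher and 2 lower in siTotal (30.8%). E2F6, a repressor E2F that works without pocket proteins, fell by 0.58 in siLong and 0.42 in siTotal against siControl. But siControl was above mock for it by 0.56, and against mock siLong was at -0.02 and siTotal at 0.14. Its siTotal means join unequal values: siTotal1 was at -0.15 and siTotal2 at -0.70 against siControl. Against mock these siRNAs were at 0.42 and -0.14 (not called). The MuvB gene LIN54 fell by 0.52 in siLong and LIN52 by 0.42 in siTotal against siControl, a mean of opposite values (0.17 in siTotal1 and -1.01 in siTotal2). RBBP4, a histone-binding subunit of MuvB, rose by 0.50 in siTotal and 0.14 in siLong, the DP gene TFDP2 rose by 0.36 in siLong, and FOXM1 rose by 0.35 in siTotal. Against mock RBBP4 was at 0.03 in siTotal and fell by 0.33 in siLong, LIN54 fell by 0.25 and TFDP2 rose by 0.51 in siLong. FOXM1 was higher in siTotal against mock by 0.10 only, with siTotal1 at 0.28 and siTotal2 at -0.08 (not called). Its siLong mean fell by 0.22 against siControl and by 0.47 against mock, and averages unequal values: siLong1 was at 0.12 against siControl and -0.13 against mock, and the libraries labelled siLong2 were at -0.55 and -0.80, all called.

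Of 10 tested genes for the cyclins, kinases and inhibitors that set pocket protein phosphorylation, 3 were higher and 4 lower in siLong against siControl, and 5 higher and 2 lower in siTotal, beside 53.5% and 44.2% of all genes called. Against mock 3 were higher and 6 lower in siLong (50.8% of all genes called) and 4 higher and 1 lower in siTotal (30.8%). CDKN1A (p21), the kinase inhibitor induced by p53, rose by 1.11 in siLong (log2; SE 0.04, adjusted p = 7.4e-24) and by 0.62 in siLong1 alone, while the libraries labelled siLong2 were higher by 1.60. CDK6 fell by 0.76 and CDK2 by 0.48 in siLong, and the cyclin D1 gene CCND1 rose by 0.31. These siLong values are all against siControl. In siTotal CDKN1C rose by 0.44 and CDK4 by 0.32, and CCND1 (-0.20) and CDK2 (-0.15) fell. The CCND1 value is a mean of opposite calls, 0.20 in siTotal1 and -0.60 in siTotal2, and against mock the siTotal mean was at -0.01 (not called). CDK2 was at 0.09 in siTotal1 (not called) and at -0.38 in siTotal2, and at -0.11 in siTotal against mock. The CDK6 mean in siLong also joins unequal values against siControl, with siLong1 at -1.23 and the libraries labelled siLong2 at -0.30. CDK6 was higher in siControl than in mock, so its siLong values against mock lie above these. No fall of CDK6 against mock is claimed for the libraries labelled siLong2. CDKN1C and CDK4 were lower in siControl than in mock by 0.65 and 0.23, and in siTotal against mock they were at -0.22 and 0.09. Of 5 genes for ubiquitin ligase factors and the DREAM kinase DYRK1A, 1 was higher and 3 lower in siLong against siControl, with SKP2 at 0.10, CCNF at -0.33 and FZR1 at -0.18; in siTotal 1 was higher and 2 lower, with CDC20 at 0.10, CCNF at -0.21 and FZR1 at -0.13. The shares of all genes called against siControl were 53.5% in siLong and 44.2% in siTotal. Against mock 0 were higher and 3 lower in siLong, and 1 higher and 3 lower in siTotal, beside 50.8% and 30.8% of all genes called. There SKP2 fell by 0.29 in siLong, opposite to its value against siControl, and siControl lay below mock for it by 0.39. CDC20 in siTotal was lower against mock, at -0.10, CCNF was at -0.25 in siLong and -0.14 in siTotal, and FZR1 was not called in siLong (-0.03) or siTotal (0.02). Several of these means join unequal values. Against siControl CCNF was at -0.38 in siTotal1 and -0.05 in siTotal2 (not called). Against mock it was at -0.30 and 0.03 (not called). FZR1 against siControl was at -0.03 in siLong1 (not called) and -0.34 in the libraries labelled siLong2. Its values against mock were 0.13 and -0.18, both called. SKP2 in siLong and CDC20 and FZR1 in siTotal were each called against siControl with 1 siRNA only.

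Across the 12 libraries, Pearson's r of log2 CPM was highest in size between E2F8 and RB1, at -0.91. It was 0.87 for E2F1 with E2F2, 0.85 for E2F2 with MYBL2, 0.83 for E2F1 with MYBL2, 0.81 for E2F8 with MYBL2, 0.75 for E2F1 with E2F8 and 0.66 for E2F2 with E2F8. Other pairs were as high as the lower of these: E2F3 with E2F7 (0.77), RBL1 with RBL2 (0.77), E2F7 with RBL2 (0.74), RBL1 with MYBL2 (0.71) and E2F2 with RBL1 (0.69). Outside the 10 genes, and among 10081 genes with a mean log2 CPM of at least 3, the profiles closest to E2F1 were those of GRK6 (r = 0.99), TROAP (0.98) and HASPIN (0.97), and closest to MYBL2 were GAREM2, CDCA4 and CTDSP2 (0.99, 0.98 and 0.98). Closest to RBL2 were CHD4, CALM3 and DCAKD (0.98, 0.98 and 0.97). PRKAB2 ran most opposite to MYBL2 (-0.98) and NKAPD1 to RBL2 (-0.98). The 12 points form 6 groups of 2 that share their siRNA, so these r values are a description of 6 conditions.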

How the data were processed

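The authors deposited unnormalized read counts by Ensembl gene for 12 libraries. STAR 2.4.0f1, featureCounts and the hg19 build are named, per the submitters' processing notes; for the annotation release, strand use, read filters and the featureCounts release: not given in the sources used here. Symbols were matched by identifier for 52181 of 63677 genes. Gene positions, exon lengths and untranslated regions come from GENCODE 29 (GRCh38) and promoters from RefSeq (GRCh38.p14), so lengths need not equal those the authors counted on.

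Genes were kept by filterByExpr (minimum count 10, minimum total 15), leaving 17730, TMM-scaled and modelled with edgeR 4.0.16 under R 4.3.3, using a robust quasi-likelihood model of the 6 groups (6 residual degrees of freedom, biological coefficient of variation 3.57%). siTotal and siLong are the means of their 2 groups. Contrasts were tested 2-sided with the quasi-likelihood F-test, adjusted by Benjamini-Hochberg over all genes tested and called under 0.05. Fold changes are log2; SEs come from the F statistic. CPM values are TMM-scaled. Depth was 35604197 to 49746637 reads per library. Duplicates were compared by chi-square, which came to 1.87 to 7.90 times its degrees of freedom, above sampling noise, and all were kept as separate replicates. Replicate numbers did not pair the libraries (correlation of deviations between groups -0.09 to 0.10), so no block was used.

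Alternatives were DESeq2 size factors, no filter, DESeq2 1.42.0, the compared groups only, a replicate block, leaving out each library, both controls as 1 and each siRNA as 1 replicate. The 10 genes and all lists were chosen with earlier results of these data known, and the promoter words, the seed matches and DESeq2 with each siRNA as 1 replicate were added after the data had been seen. List genes named are the 2 largest rises and 2 largest falls called per list in siTotal and siLong against siControl, with their values in other comparisons; likeness was ranked by Pearson's r. Of the genes this rule names, 1 is not reported here.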

Additional observations from a re-analysis of the deposited data

Results flagged for a closer look

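Differences between the siRNAs of 1 target that passed the test of the difference itself (edgeR, adjusted p under 0.05) were taken as results to look at again. In siLong1 minus siLong2, E2F7 was at -0.78, RBL2 at -0.58, E2F3 at -0.32 and RB1 at -0.23 on the log2 scale, and MYBL2 was at 0.67, E2F2 at 0.66, E2F8 at 0.42, E2F1 at 0.35, E2F4 at 0.30 and RBL1 at 0.17. NFYA itself was lower by 0.57 in siLong1 than in the libraries labelled siLong2 (adjusted p = 3.3e-12). In siTotal1 minus siTotal2, E2F4 was at 0.42, MYBL2 at 0.31, E2F3 at 0.28 and E2F8 at 0.26, and E2F2 was at -0.26, RB1 at -0.25 and E2F1 at -0.24. NFYA was at 0.04 there (adjusted p = 0.58). With 2 libraries a group, no single library could be checked as an outlier.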

How the results depend on the processing

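With each siRNA as 1 replicate, edgeR called 0 of the 10 genes in siTotal and 0 in siLong against the controls. Over all genes it called 0 of 18527 in siTotal, with 589 at an unadjusted p under 0.05 and 13 called by DESeq2. In siLong it called 0 of 18620, with 1736 at an unadjusted p under 0.05 and 205 called by DESeq2. This setting takes siControl and mock as 2 replicates of 1 control, so the difference between them counts as spread. The usual fit called 7828 and 9494 against siControl alone, and 6893 and 9877 against both controls as 1. E2F3 in siTotal turned to 0.075 with both controls as 1 and to 0.071 with each siRNA as 1 replicate. With DESeq2, siTotal2 against mock had 3 genes called in place of 5. Leaving out 1 library gave 3 to 6 genes in siTotal1 against mock and 3 to 4 in siTotal2 against mock; elsewhere the count stayed within 1.5 times. Without mock replicate 1, 3505 genes differed in siTotal against mock in place of 5455. The replicate numbers are only numbers (8 of 12 libraries correlated best with their own): with a replicate block the calls held except E2F1 in siTotal2 against siControl (-0.13, adjusted p = 0.051), giving 8 genes in place of 9. Of the genes' single fold changes under the other settings, 803 were alike, 32 lost the call, 3 gained one and 2 turned. Leaving out a library, 705 were alike, 50 lost the call, 5 gained one and 0 turned. Alike means called in the same direction in both fits, or called in neither, whatever the sign. Turned covers only values called in at least 1 of the fits. At 653 to 9992 reads a gene, counting error adds to the spread between duplicates, most for the genes with the fewest reads; how far each limits small differences was not tested.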

Other observations

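LIN52 and CDK6, chosen after their values were seen, differed more between the siTotal siRNAs than any of the 10 genes did. LIN52, a MuvB subunit, was higher by 1.17 (log2) in siTotal1 than in siTotal2, at 0.17 in siTotal1 and -1.01 in siTotal2 against siControl and at 0.25 and -0.92 against mock. CDK6 was higher by 1.19 in siTotal1 than in siTotal2, at 0.66 and -0.53 against siControl and at 1.03 and -0.17 against mock. It fell by 1.23 in siLong1 and by 0.30 in the libraries labelled siLong2 against siControl. Because siControl lay above mock for CDK6, its siLong values against mock lie above these. RBL1 and RBL2, in contrast, differed between siTotal1 and siTotal2 by -0.01 and 0.03.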
